A study of Homo sapiens with 6 samples.

Results

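The glucose transport, glycolysis and hypoxia genes are 44 genes chosen by name: glucose transporters, the enzymes that take glucose to pyruvate and lactate, the lactate carriers, pyruvate dehydrogenase and its kinases, pentose phosphate and polyol enzymes, and 5 genes of the hypoxia response. All 44 were found among the 27394 genes of the table, and all had a mean normalized count of at least 1 over the 6 libraries, as did 22189 genes in all. The RNA came from PANC-1, an established human pancreatic cancer cell line. The sample labels give its medium as RPMI-1640 with serum, while the methods of the study name DMEM with serum for its cell lines, so the medium, and with it the glucose supply, is not certain. Cells of the shControl group carried a control shRNA and cells of the shZDHHC20 group an shRNA against ZDHHC20, a palmitoyltransferase, with 3 libraries in each group and otherwise the same labels. The comparison asks what silencing of ZDHHC20 did to the transcripts of this 1 line. The labels give neither the sequence of the shRNA nor its delivery beyond transfection or infection, nor the time after it. They do not say whether replicates were separate cultures, so p-values measure the spread between these samples, which may be technical. The table's columns carry the names siZDHHC20 and NC and were matched to the samples by group and number.

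The values are normalized counts, that is, counts of reads per gene divided by 1 factor per library and not by gene length. They summed to between 17083277 and 18007664 per library, and the smallest value above 0, taken as the worth of 1 read, was between 0.939 and 1.06. ZDHHC20 itself was at 2001, 2033 and 1940.4 in the shControl libraries and at 872, 779 and 893 in the shZDHHC20 libraries, or 42.6% of control (log2 fold change -1.23, adjusted p = 4.36e-07). The shZDHHC20 library of replicate 2 stood apart from the other shZDHHC20 libraries: over the 4136 genes whose mean reached 1000, the SD of its log2 differences from them was 0.178 and 0.198, against 0.0722 between replicates 1 and 3 and 0.0674 to 0.0718 between shControl libraries. Mitochondrially encoded genes took 4.01% of its summed values and 5.28% to 5.52% of those of the other 5 libraries. Its part in the results was not tested beyond the values given without it. All 6 ductal epithelial markers were in the table, with summed levels of 80847 to 82813 in the shControl libraries and 75626 to 76908 in the shZDHHC20 libraries. KRT8 and KRT18 made up most of these sums, and KRT7 was at 63.6 to 122 over the 6 libraries. EPCAM was low in the shControl libraries, at 65.7, 95.4 and 56.1, and higher in the shZDHHC20 libraries, at 534, 477 and 563. Of the 6 markers, EPCAM and MUC1 were called higher at an adjusted p under 0.05 and 0 were called lower. Of 23 markers of acinar, endocrine, blood, endothelial and fibroblast cells 12 were in the table, and apart from COL1A1 the highest value of any was 41.3. COL1A1, a collagen gene listed as a fibroblast marker, was at 3953, 3958 and 3882 in the shControl libraries and 3376, 3113 and 3291 in the shZDHHC20 libraries and fell to 82.9% of control (log2 fold change -0.27, SE 0.0489, adjusted p = 0.00288), in the same direction as the genes called below, and its part in the results was not tested.

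Glucose enters cells through carriers of the SLC2A family, is trapped by hexokinase as glucose 6-phosphate, and is split and oxidized to pyruvate by the enzymes of glycolysis. Pyruvate is reduced to lactate, which leaves through monocarboxylate carriers, or enters mitochondria for oxidation by pyruvate dehydrogenase, which pyruvate dehydrogenase kinases switch off. Many of these genes are known targets of the hypoxia-inducible factors, and pancreatic ductal cancers are known for oxygen-poor tissue and a high rate of glycolysis.

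Of the 44 genes, 22 were lower in the shZDHHC20 libraries and 0 were higher at an adjusted p under 0.05 in limma's moderated test, two-sided and adjusted over all 22189 genes tested. At an unadjusted p under 0.05, 28 were lower and 0 higher. The share called lower was 50%, against 6.84% of all genes tested, of which 4.61% were called higher. Since abundant genes are called more often, the same shares were taken above higher levels. Among genes with a mean of at least 100, 21 of 40 of these genes (52.5%) were called lower, against 13.3% of all such genes, of which 8.41% were called higher. Above a mean of 1000 the count was 13 of 26 (50%), against 17.6%. The 44 genes were chosen with earlier results of these data known, so these shares describe the list and are no test of it. The falls were mostly small: 6 of the 22 fell by more than 1.5-fold and 16 by 1.5-fold or less. The median log2 fold change of the 44 genes was -0.24, that of all genes tested 0.01, and 39 of the 44 values were below 0. In 32 of the 44 genes (72.7%) the groups did not overlap, against 28.6% of all genes tested, and 31 of these 32 were lower in the shZDHHC20 libraries. Unlike the calls, this share was not taken among abundant genes only, while 40 of the 44 genes had a mean of at least 100. In bulk RNA, fewer cells that express a gene and less of its RNA per cell cannot be told apart.

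The 44 genes together took 1.32%, 1.31% and 1.32% of the summed values of the shControl libraries, against 1.18%, 1.25% and 1.18% for shZDHHC20. The groups did not overlap, and replicate 2 was the shZDHHC20 library nearest to the controls. Without that library, 27 of the genes were called lower and 1, HIF1A, higher, while the count called among all genes tested went from 2541 to 4454. The count lower was 13 without shControl replicate 1 and 14 without shControl replicate 3, with 1233 genes called in all in each of these fits. In each of the fits that left out 1 library, 13 genes were called lower: SLC2A8, HK1, HK2, GPI, PFKP, ALDOC, PFKFB4, PGAM1, LDHA, PDK3, SORD, BNIP3 and ADM. SLC2A3, SLC2A12, PFKM, GAPDH, PKM, SLC16A1, SLC16A3, PDK1 and TKT each lost the call when 1 or another library was left out. Without the mean-variance trend in the variances, the call was kept by 4 genes, HK2, ALDOC, SLC2A8 and PDK3.

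**Figure D1:**
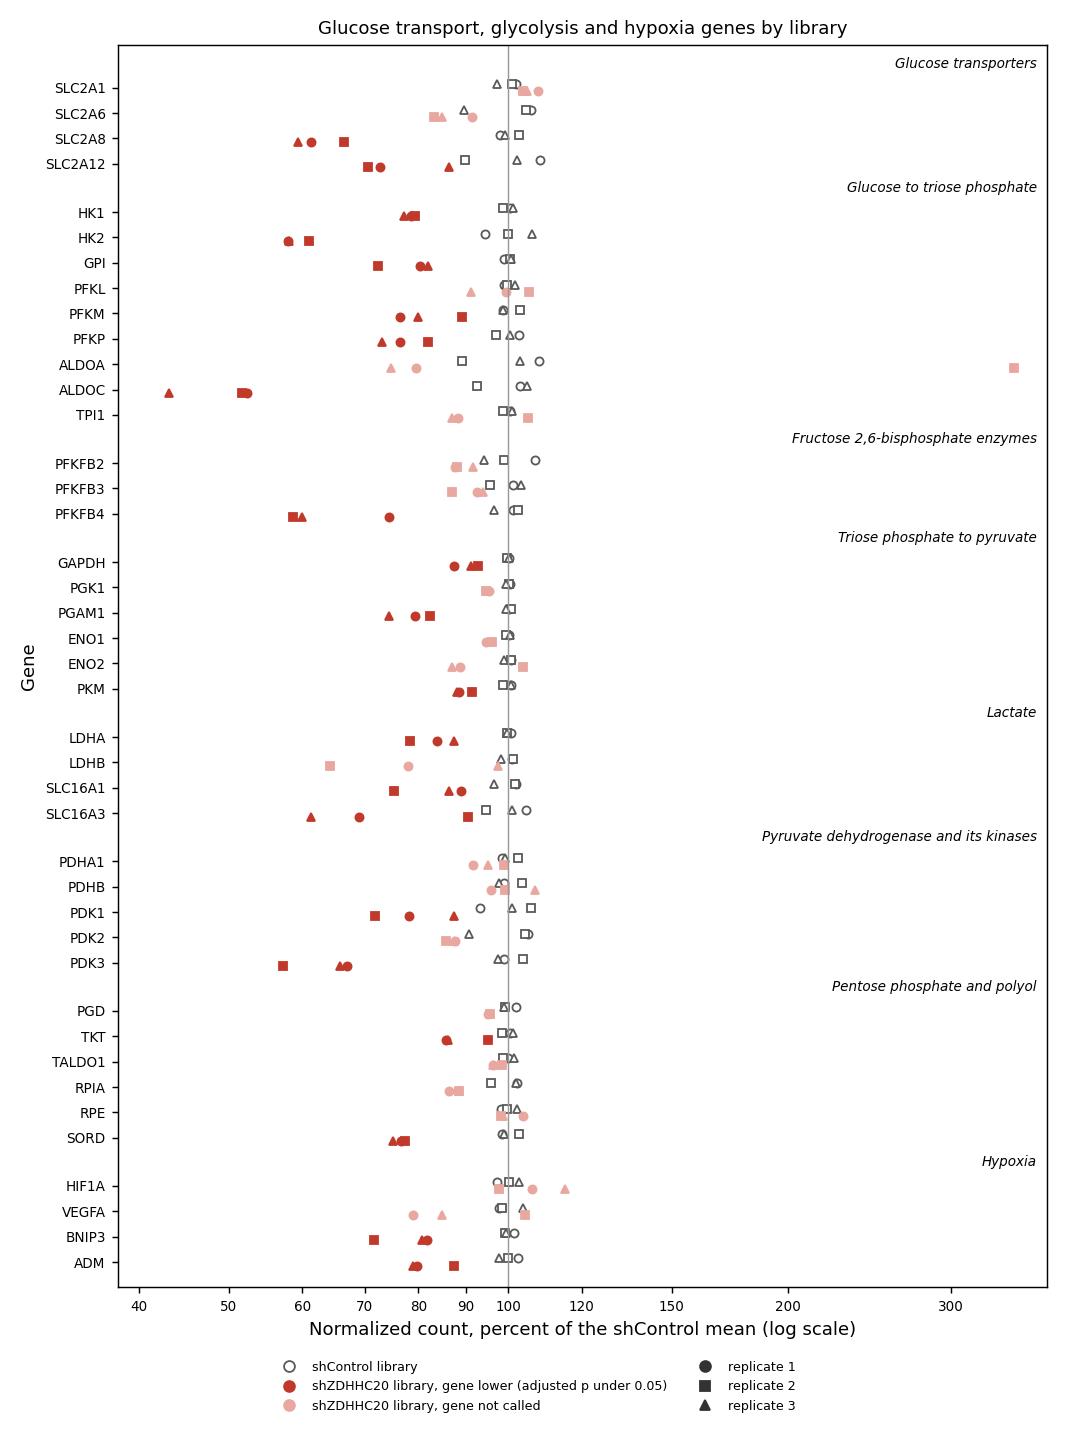
Normalized counts of those 41 genes whose mean reached 50, 1 row per gene grouped by role, as percent of the gene's shControl mean on a log axis. Open symbols are shControl libraries, filled ones shZDHHC20 libraries (dark red where the gene was called lower), and the shape gives the replicate. The filled symbols of ALDOC lie farthest to the left, and the ALDOA value of shZDHHC20 replicate 2 lies far to the right of the rest. SLC2A3, SLC2A10 and CA9 were below the level shown.

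Of 6 glucose transporters 3 were called lower, and SLC2A1 was not. SLC2A1, the widespread basal carrier known as GLUT1, was at 1398, 1386 and 1335 in the shControl libraries and 1478, 1425 and 1439.7 in the shZDHHC20 libraries. The shZDHHC20 values lay a little above all the controls, but the difference was small and not called (log2 fold change 0.08, 95% confidence interval -0.04 to 0.20, adjusted p = 0.451). SLC2A8, an intracellular carrier (ENSG00000136856, chr9:127397138-127408424 of GRCh38), was at 980.2, 1027 and 991 in the shControl libraries and 613, 665 and 593 in the shZDHHC20 libraries. Its groups were far apart, and it fell to 62.4% of control (log2 fold change -0.68, SE 0.0685, adjusted p = 3.58e-05).

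SLC2A3, the high-affinity carrier GLUT3, was at 38.4, 37.2 and 26.0 in the shControl libraries and 19.1, 6.57 and 7.70 in the shZDHHC20 libraries. It had the largest fall among the genes called (log2 fold change -1.74, SE 0.424, adjusted p = 0.0174) at a level of few reads, and every shZDHHC20 value was below every control value. The call was lost without shControl replicate 1 (adjusted p = 0.0926), shControl replicate 2 or shZDHHC20 replicate 3. SLC2A12, another carrier, was at 359.7, 298 and 339 in the shControl libraries and 242, 235 and 287 in the shZDHHC20 libraries and was lower by a smaller step (log2 fold change -0.39, SE 0.109, adjusted p = 0.0355). SLC2A6 (377 to 479 over the 6 libraries, log2 fold change -0.21) and SLC2A10 (0 to 10.0) were not called and their groups overlapped. SLC2A10 was too close to 0 for a difference to be detectable.

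From glucose to the triose phosphates, 6 of 9 genes were called lower, among them both hexokinases. HK2, the inducible hexokinase (ENSG00000159399, chr2:74833981-74893359 of GRCh38), was at 793, 839.6 and 891 in the shControl libraries and 487, 513 and 488 in the shZDHHC20 libraries. It fell to 58.9% of control, and the groups were far apart (log2 fold change -0.76, SE 0.0722, adjusted p = 2.39e-05). HK1, the constitutive form, was at 2273, 2233 and 2289.8 in the shControl libraries and 1781, 1798 and 1747 in the shZDHHC20 libraries and fell to 78.4% (log2 fold change -0.35, SE 0.0503, adjusted p = 0.000562). As a level per kilobase of transcript, the shControl mean was 628 for HK1 and 146 for HK2. In every shZDHHC20 library the fall of HK2 was larger than that of HK1: the ratio of HK2 to HK1 was 0.349, 0.376 and 0.389 in the shControl libraries and 0.273, 0.285 and 0.279 in the shZDHHC20 libraries.

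GPI, which turns glucose 6-phosphate into fructose 6-phosphate, was at 7319.8, 7412 and 7441 in the shControl libraries and 5940.0, 5345 and 6049 in the shZDHHC20 libraries (log2 fold change -0.36, SE 0.0516, adjusted p = 0.000598), lowest in replicate 2. Of the phosphofructokinase genes, whose enzyme makes the committed step, PFKP and PFKM were lower and PFKL was not. PFKP, the platelet form, was at 9545, 9016 and 9337 in the shControl libraries and 7113, 7609.8 and 6797 in the shZDHHC20 libraries (log2 fold change -0.38, SE 0.0498, adjusted p = 0.00031). PFKM, the muscle form, was at 1229, 1282 and 1229.5 in the shControl libraries and 953, 1110.1 and 997 in the shZDHHC20 libraries (log2 fold change -0.29, SE 0.0678, adjusted p = 0.0134). PFKL, the liver form, was at 1782, 1796 and 1832 in the shControl libraries and 1791, 1899.9 and 1645 in the shZDHHC20 libraries, with overlapping groups (log2 fold change -0.02, 95% confidence interval -0.15 to 0.11). Per kilobase of transcript the shControl levels were 3504 for PFKP, 619 for PFKL and 387 for PFKM. Within libraries the ratio of PFKP to PFKL was 5.35, 5.02 and 5.10 in the shControl group and 3.97, 4.01 and 4.13 in the shZDHHC20 group, and the PFKM to PFKL ratio also had no overlap between groups, with means of 0.691 and 0.574.

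ALDOC, an aldolase that cleaves fructose 1,6-bisphosphate (ENSG00000109107, chr17:28573115-28577264 of GRCh38), was at 345, 309 and 350.4 in the shControl libraries and 175, 173 and 144 in the shZDHHC20 libraries. At 49.0% of control it had the largest fall among the genes whose mean reached 100 (log2 fold change -1.03, SE 0.111, adjusted p = 6.12e-05). ALDOA, the aldolase of muscle and most tissues, was listed at 77.8, 64.3 and 74.1 in the shControl libraries and 57.2, 253 and 53.9 in the shZDHHC20 libraries. The high value in shZDHHC20 replicate 2 decided the sign of its log2 fold change, 0.36 with all libraries and -0.37 without that one, and neither was called. In GENCODE 29 its exons are shared with another gene model, AC093512.2, so how reads of this locus were assigned is uncertain, and the level of ALDOA is not read further here. TPI1, which interconverts the triose phosphates, was at 7556, 7436 and 7587 in the shControl libraries and 6639, 7892 and 6541 in the shZDHHC20 libraries. Replicate 2 lay above the controls and the other shZDHHC20 libraries below them, and TPI1 was not called with all libraries (log2 fold change -0.10, adjusted p = 0.348) and was called lower without shZDHHC20 replicate 2 (-0.19, adjusted p = 0.0001).

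The PFKFB enzymes make and break fructose 2,6-bisphosphate, the activator of phosphofructokinase, and 1 of 3 was called lower. PFKFB4 was at 364, 368 and 346 in the shControl libraries and 267, 210.4 and 216 in the shZDHHC20 libraries and fell to 64.3% of control (log2 fold change -0.64, SE 0.107, adjusted p = 0.0016). PFKFB3 was at 468, 442 and 478 in the shControl libraries and 428, 402 and 434 in the shZDHHC20 libraries (log2 fold change -0.13, 95% confidence interval -0.30 to 0.04, adjusted p = 0.335). PFKFB2 (1057 to 1288) had a log2 fold change of -0.17 (adjusted p = 0.128), and like PFKFB3 it was not called although all its shZDHHC20 values were below the controls. The ratio of PFKFB3 to PFKFB4 was higher in every shZDHHC20 library, at 1.60 to 2.01 against 1.20 to 1.38.

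From triose phosphate to pyruvate, 3 of 6 genes were called lower and 0 higher. PGAM1, the phosphoglycerate mutase, had the largest fall of the group, from 8985, 9035 and 8924 in the shControl libraries to 7121, 7401 and 6687 in the shZDHHC20 libraries (log2 fold change -0.35, SE 0.0468, adjusted p = 0.000367). GAPDH, which oxidizes glyceraldehyde 3-phosphate and is often used as a reference gene, was at 26714, 26604 and 26745 in the shControl libraries and 23292, 24737 and 24354 in the shZDHHC20 libraries (log2 fold change -0.15, SE 0.0398, adjusted p = 0.0308). PKM, the pyruvate kinase gene, was at 30231, 29699.7 and 30265 in the shControl libraries and 26573, 27444 and 26479 in the shZDHHC20 libraries (log2 fold change -0.16, SE 0.0384, adjusted p = 0.014). These were small falls, to 90.4% of control for GAPDH and 89.2% for PKM, and under quantile normalization neither was called, with log2 fold changes of -0.06 in both (adjusted p = 0.33 and 0.44).

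ENO1, the main enolase, was at 58061, 57546 and 58260.1 in the shControl libraries and 54799, 55611 and 55239 in the shZDHHC20 libraries. All 3 shZDHHC20 values were lower, but the difference was not called (log2 fold change -0.07, 95% confidence interval -0.15 to 0.01), and its sign turned under quantile normalization (0.038). PGK1, the phosphoglycerate kinase that yields ATP, differed by as little, at 12088, 12042 and 11962 in the shControl libraries and 11477, 11373 and 11414 in the shZDHHC20 libraries (log2 fold change -0.07, adjusted p = 0.27). Both were called lower without shZDHHC20 replicate 2 (adjusted p = 0.00164 for ENO1 and 0.029 for PGK1). ENO2, the neuronal enolase, had overlapping groups (518 to 617, log2 fold change -0.11). Counted over the 10 steps of glycolysis from hexokinase to pyruvate kinase, 9 of 15 genes were called lower, 0 higher, and the median log2 fold change was -0.16.

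Of 4 genes of lactate production and export, 3 were called lower. LDHA, the lactate dehydrogenase subunit that favours lactate formation, was at 25555, 25289.6 and 25297 in the shControl libraries and 21254, 19886 and 22202 in the shZDHHC20 libraries and fell to 83.2% of control (log2 fold change -0.27, SE 0.0453, adjusted p = 0.00189). SLC16A3, the lactate exporter MCT4, was at 8605, 7789.8 and 8312 in the shControl libraries and 5681, 7445 and 5053 in the shZDHHC20 libraries (log2 fold change -0.46, SE 0.103, adjusted p = 0.0106). Its replicate 2 value lay close to the controls and the other shZDHHC20 values well below. SLC16A1, the carrier MCT1, was at 1597, 1589 and 1509 in the shControl libraries and 1389.6, 1179 and 1350.2 in the shZDHHC20 libraries (log2 fold change -0.26, SE 0.0683, adjusted p = 0.024), and here replicate 2 was the lowest. LDHB, the other lactate dehydrogenase subunit, was at 445, 446 and 433 in the shControl libraries and 343, 284 and 430.2 in the shZDHHC20 libraries, with replicate 3 just below the controls and replicate 2 far below. It was not called (log2 fold change -0.34, 95% confidence interval -0.61 to -0.08, adjusted p = 0.0973), except without shZDHHC20 replicate 3 (-0.50, adjusted p = 0.014), and it shares exons with another gene model, AC010197.2.

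Of the 3 listed kinases that switch off pyruvate dehydrogenase 2 were called lower, and the listed subunits of the enzyme itself, PDHA1 and PDHB, were not called. Among the further genes counted below, the subunit DLAT was called lower. The kinase PDK4, named after its value was seen, was not called (log2 fold change -0.24). PDK3 (ENSG00000067992, chrX:24465221-24541862 of GRCh38) was at 171, 179 and 168 in the shControl libraries and 116, 98.6 and 114 in the shZDHHC20 libraries and fell to 63.3% of control (log2 fold change -0.66, SE 0.126, adjusted p = 0.004). PDK1 was at 391, 444 and 424 in the shControl libraries and 328, 301 and 367 in the shZDHHC20 libraries (log2 fold change -0.34, SE 0.0954, adjusted p = 0.0349). PDK2 was at 526, 523 and 456 in the shControl libraries and 439.9, 430.1 and 439 in the shZDHHC20 libraries, lower in all 3 but not called (log2 fold change -0.20, adjusted p = 0.155). PDK3 fell further than PDK1 in each library, with a ratio of PDK3 to PDK1 of 0.397 to 0.437 in the shControl group and 0.310 to 0.353 in the shZDHHC20 group. PDHA1 (1099 to 1227) and PDHB (2050.0 to 2287), the subunits of the dehydrogenase component, had overlapping groups and log2 fold changes of -0.07 and 0.01, with 95% confidence intervals of -0.20 to 0.06 and -0.11 to 0.13.

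In the pentose phosphate and polyol pathways 2 of 6 genes were called lower. SORD, sorbitol dehydrogenase of the polyol route to fructose, was at 516, 538 and 519 in the shControl libraries and 402, 406 and 394 in the shZDHHC20 libraries, with narrow and well separated groups (log2 fold change -0.39, SE 0.0743, adjusted p = 0.00419). TKT, the transketolase of the non-oxidative branch, was at 6575, 6443 and 6626 in the shControl libraries and 5612, 6219 and 5639 in the shZDHHC20 libraries (log2 fold change -0.17, SE 0.0498, adjusted p = 0.042). PGD, the 6-phosphogluconate dehydrogenase of the oxidative branch (2168 to 2322, log2 fold change -0.07), TALDO1, transaldolase (3642 to 3846, -0.05), and RPIA, the ribose 5-phosphate isomerase (483 to 573, -0.19), were lower in all shZDHHC20 libraries without being called. RPE, the ribulose-phosphate epimerase, was level, at 1665, 1690.3 and 1730.1 in the shControl libraries and 1757, 1666 and 1673 in the shZDHHC20 libraries (95% confidence interval of the log2 fold change -0.11 to 0.12).

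Of the 5 hypoxia genes 2 were called lower, and HIF1A, the oxygen-regulated subunit of the main hypoxia-inducible factor, was not. HIF1A transcripts were at 1696, 1749 and 1792 in the shControl libraries and 1849.6, 1704 and 2010.3 in the shZDHHC20 libraries (log2 fold change 0.08, 95% confidence interval -0.05 to 0.22). Replicates 1 and 3 were above the controls and replicate 2 was among them, and without that library HIF1A was called higher (0.14, adjusted p = 0.0441). Transcripts do not show the amount of the protein, which oxygen controls after translation.

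BNIP3, a mitophagy receptor, was at 1709, 1670.2 and 1673 in the shControl libraries and 1375, 1206 and 1358 in the shZDHHC20 libraries (log2 fold change -0.36, SE 0.0626, adjusted p = 0.00219), and ADM, the peptide hormone adrenomedullin, at 3436, 3358 and 3279 in the shControl libraries and 2673, 2937 and 2652 in the shZDHHC20 libraries (log2 fold change -0.29, SE 0.0538, adjusted p = 0.00371). VEGFA, the vascular growth factor, was at 1957, 1972 and 2078 in the shControl libraries and 1581, 2086 and 1699.5 in the shZDHHC20 libraries. Its replicate 2 value was the highest of all 6 and the other shZDHHC20 values were the lowest, and it was not called (log2 fold change -0.17, adjusted p = 0.237) except without that library (-0.29, adjusted p = 0.000463). CA9, carbonic anhydrase IX, was near the floor at 11.1, 10.0 and 6.01 in the shControl libraries and 0, 7.51 and 0.962 in the shZDHHC20 libraries, and was called lower only without shZDHHC20 replicate 2 (adjusted p = 0.0113).

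Wider hypoxia and oxygen-sensing genes were taken as a list of their own, of which 29 were tested: 8 were called lower and 5 higher. Of all genes tested 6.84% were called lower and 4.61% higher. Among all genes with a mean of at least 100, a level that 24 of the 29 reached, the shares were 13.3% and 8.41%. The 4 called genes of the list with the smallest adjusted p lay on both sides. WSB1, a ubiquitin ligase subunit, rose from 1445, 1436 and 1549 to 2202, 2059 and 2097 (log2 fold change 0.52, SE 0.0566, adjusted p = 6.36e-05), and BHLHE40, a transcriptional repressor, from 3685, 3734 and 3772 to 4688, 4729 and 4936 (log2 fold change 0.36, SE 0.0457, adjusted p = 0.000233). ERO1A, an oxidase of disulfide formation in the endoplasmic reticulum, rose from 1634, 1693 and 1549 to 2176, 2089 and 2263 (log2 fold change 0.42, SE 0.0573, adjusted p = 0.000384). ANGPTL4, an inhibitor of lipoprotein lipase, fell from 1529, 1460.3 and 1477 to 927, 1057 and 982 (log2 fold change -0.59, SE 0.0639, adjusted p = 6.18e-05).

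Chosen after their values were seen, some other subunits of the hypoxia-inducible factors and a pair of targets are given as well. EPAS1, which encodes HIF2A, was at 1789.5, 1826 and 1849 in the shControl libraries and 2377, 2185 and 2348 in the shZDHHC20 libraries (log2 fold change 0.34, SE 0.0541, adjusted p = 0.00126), and ARNT, the shared partner subunit, was at 959, 1043 and 1009 in the shControl libraries and 1249.7, 1125 and 1215 in the shZDHHC20 libraries (log2 fold change 0.25, SE 0.0649, adjusted p = 0.0226). EPAS1 and ARNT were called higher. ARNT2, a further subunit at few reads, was not called and its groups overlapped (log2 fold change -0.03). HIF3A, also listed, had no values. DDIT4, an inhibitor of mTORC1, was at 3274, 3016 and 3269 in the shControl libraries and 2086, 2600.5 and 1963 in the shZDHHC20 libraries (log2 fold change -0.53, SE 0.0854, adjusted p = 0.00126), and NDRG1 at 192, 203 and 219 in the shControl libraries and 122, 155 and 107 in the shZDHHC20 libraries (log2 fold change -0.69, SE 0.143, adjusted p = 0.00687), both lower. These genes do not stand for the wider list, in which 8 were called lower and 5 higher. WSB1, BHLHE40 and ERO1A of that list were called higher, as given above.

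**Figure D2:**
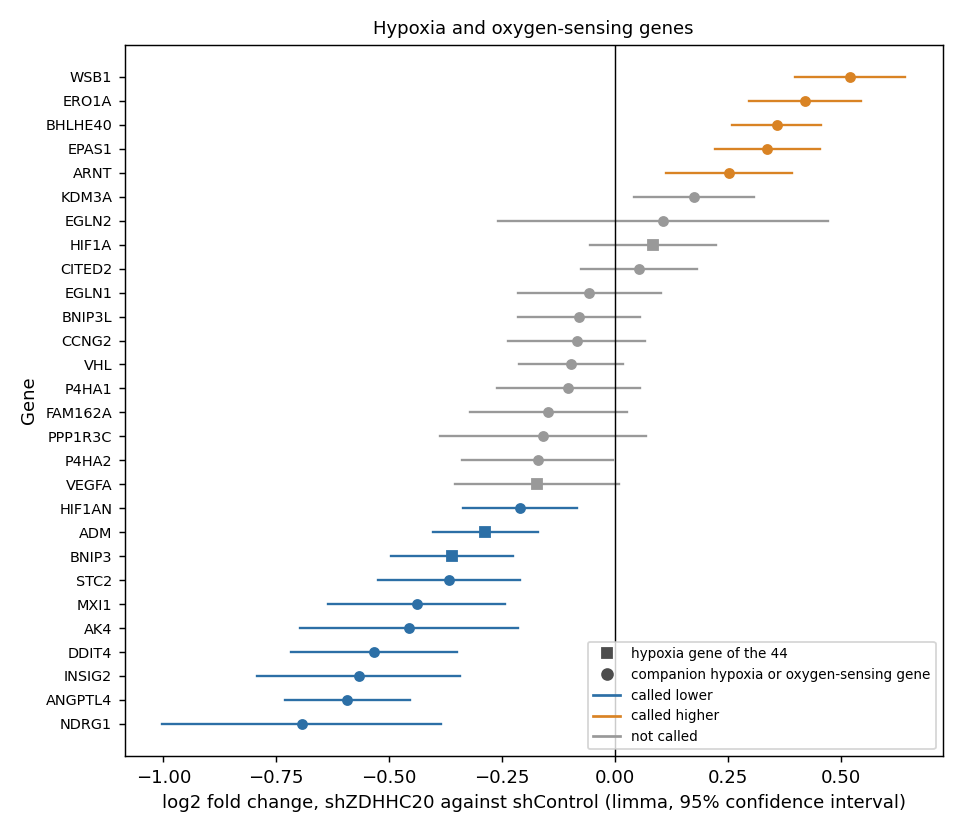
Log2 fold change of shZDHHC20 against shControl with limma's 95% confidence interval for 28 hypoxia and oxygen-sensing genes with a mean of at least 50, 4 of them among the 44 genes (squares). Blue marks genes called lower, orange genes called higher and grey genes not called; both colours are present, with NDRG1 lowest at -0.69 and WSB1 highest at 0.52.

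Further genes of the same pathways were counted from fixed lists. Over all these companion lists, 79 genes were tested, 17 were called lower (21.5%) and 7 higher (8.86%), with a median log2 fold change of -0.08. Of all genes tested 6.84% were called lower and 4.61% higher. Among all genes with a mean of at least 100, a level that 60 of the 79 companion genes reached, these shares were 13.3% and 8.41%. Companion transporters and glycolysis genes had 2 of 19 called lower and 0 higher: PGAM5 (-0.22, adjusted p = 0.024), a mitochondrial phosphatase named for its likeness to the mutase, and GPD1L (-0.31, adjusted p = 0.0251), a relative of glycerol 3-phosphate dehydrogenase.

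Among 17 companion genes of pyruvate and lactate, 3 were lower and 2 higher. DLAT, the acetyltransferase subunit of pyruvate dehydrogenase, fell from 2669.7, 2685 and 2754 to 2105, 1889 and 2029.6 (log2 fold change -0.43, SE 0.0549, adjusted p = 0.000234). PDP2, a phosphatase that reactivates the enzyme, fell too (log2 fold change -0.33, SE 0.0722, adjusted p = 0.00937), as did BSG, the chaperone of the lactate carriers (log2 fold change -0.18, SE 0.0456, adjusted p = 0.0212). PCK2, the mitochondrial carboxykinase, rose from 1924, 1751 and 1855 to 2166, 2182 and 2071 (log2 fold change 0.22, SE 0.0557, adjusted p = 0.0237).

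Of 9 companion genes of the pentose phosphate and polyol pathways 3 were lower and 0 higher. PRPS1, which makes phosphoribosyl pyrophosphate, had a log2 fold change of -0.35 (adjusted p = 0.00117) and AKR1B1, the aldose reductase that precedes SORD, one of -0.25 (adjusted p = 0.0142). Of 5 glucose-responsive genes 1 was called, MLXIP, a glucose-sensing transcription factor, at 3301, 3331 and 3398 in the shControl libraries and 2967, 2837 and 2923 in the shZDHHC20 libraries (log2 fold change -0.20, SE 0.0474, adjusted p = 0.0146).

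**Figure D3:**
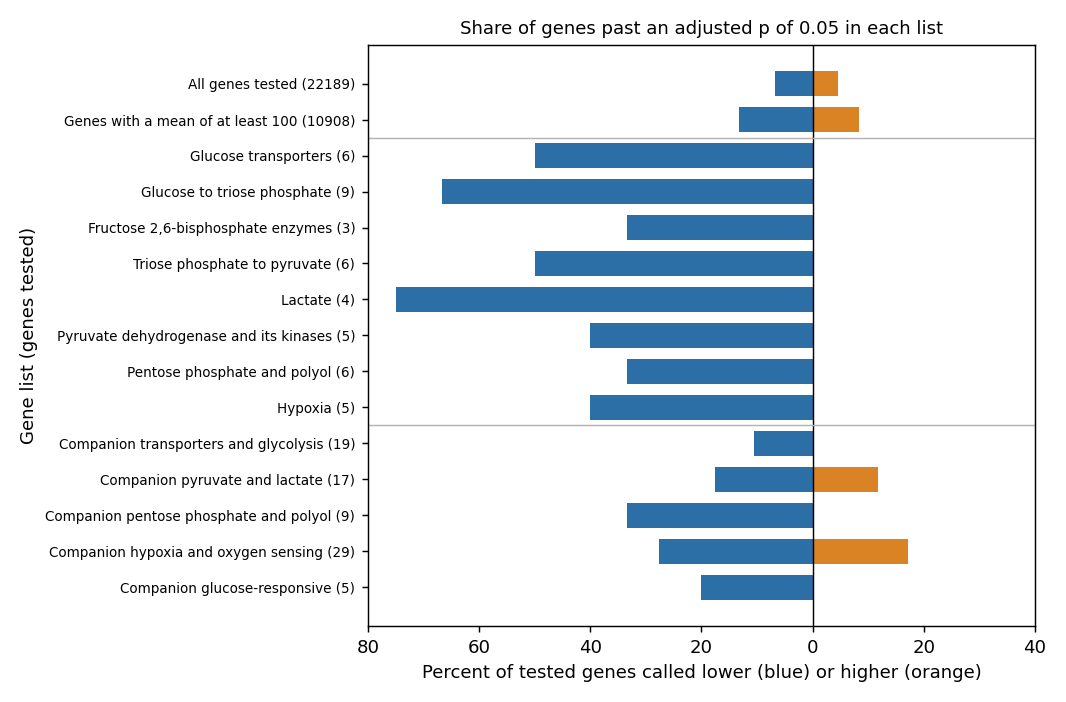
Percent of tested genes called lower (blue, to the left) or higher (orange, to the right) in shZDHHC20 for all genes, for genes with a mean of at least 100, for the 44 genes by role and for the companion lists, with the number tested in parentheses. No role of the 44 genes had a gene called higher, and the companion hypoxia list had calls on both sides.

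The ratios of paralogs within a library do not depend on the scaling of that library, and they are given without a test. The ratio of HK2 to HK1, PFKP to PFKL, PFKM to PFKL and PDK3 to PDK1 was lower in all 3 shZDHHC20 libraries than in all 3 shControl libraries, and that of PFKFB3 to PFKFB4 higher. SLC2A3 to SLC2A1 was also lower, at few reads of SLC2A3. The ratios of ENO2 to ENO1, LDHB to LDHA, PDK1 to PDK2 and SLC16A3 to SLC16A1 overlapped between groups, and the last spread from 3.74 to 6.32 within the shZDHHC20 group.

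**Figure D4:**
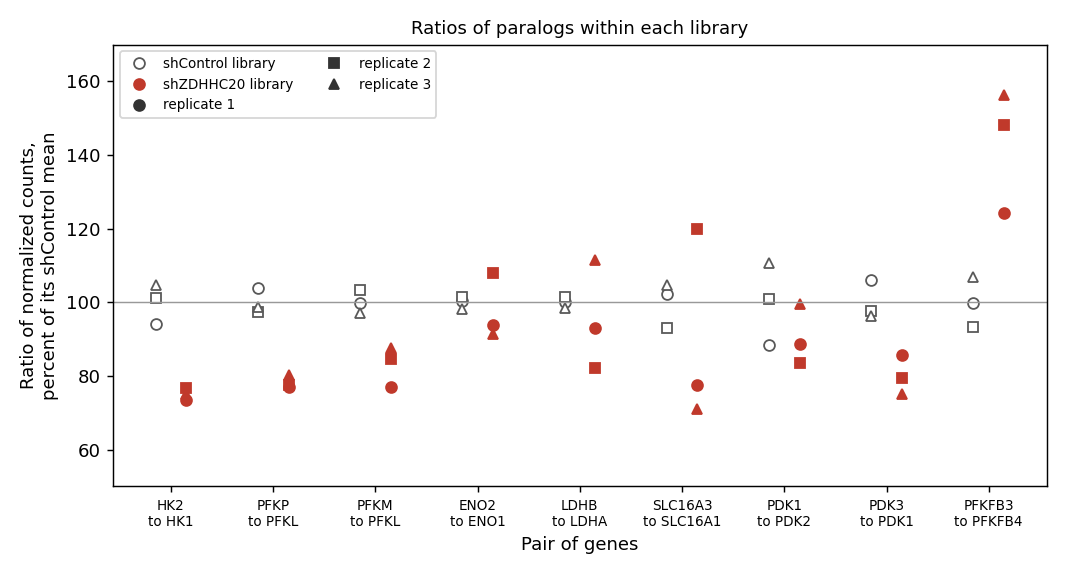
Ratio of the normalized counts of gene pairs in each library as percent of the ratio's shControl mean, open symbols for shControl and filled for shZDHHC20 libraries, with the shape giving the replicate. The HK2 to HK1, PFKP to PFKL, PFKM to PFKL and PDK3 to PDK1 values of the shZDHHC20 libraries lie below those of all controls, and PFKFB3 to PFKFB4 above.

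To show what the starts of these genes share, the 250 bases before each RefSeq start (GRCh38.p14) were searched on both strands for CACGTG, the palindromic E-box, and for ACGTG, the core of the hypoxia response element, which every CACGTG also contains. Windows were found for 39 of the 44 genes, 68 in all, of 35116 windows of 27305 genes. CACGTG was in 9 of the 68 windows (13.2%), against 6.34% of all windows, and in at least 1 window of 9 of 39 genes (23.1%), against 7.73% of all genes. ACGTG was in 24 of the 68 windows (35.3%), against 18.5%, and in windows of 21 of 39 genes (53.8%), against 21.7%. CACGTG was near 5 of 19 genes called lower and 4 of 20 others (ALDOA, PDHB, PDK2 and PFKFB3). ACGTG was near 11 of 19 and 10 of 20. GCGTG, the other form of that core, was in 24 of the 68 windows (35.3%), against 32.2%. It was in windows of 22 of 39 genes (56.4%), against 36.2%, and near 10 of 19 genes called lower and 12 of 20 others. A gene with more windows has more places for a match, so shares of genes also depend on windows per gene. A match is a string of letters and not a binding site. The stretches of 30 bases that hold CACGTG are shown for the 5 genes called lower, since these include the hexokinase, aldolase and lactate dehydrogenase described above, 5′ to 3′ on the strand of the gene, with the motif in capitals.
HK2: gattgctgcgccCACGTGggagggagcccc
HK2: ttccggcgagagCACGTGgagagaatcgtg
BNIP3: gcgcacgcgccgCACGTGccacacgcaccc
LDHA: agactcccagcgCACGTGgagcagtctgcc
LDHA: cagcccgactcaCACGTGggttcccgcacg
GAPDH: gctctgcggggtCACGTGtcgcagaggagc
ALDOC: aagtgcccggCACGTGgtaaagggattgtg
The HK2 stretches are chr2:74834964-74834993 and chr2:74835009-74835038 (plus strand), with the motif starting 194 and 149 bases before the start. That of BNIP3 is chr10:131982040-131982069 (minus strand, 134 bases before). Those of LDHA are chr11:18394366-18394395 and chr11:18394464-18394493 (plus strand, 185 and 87 bases before), that of GAPDH is chr12:6535171-6535200 (plus strand, 81 bases before), and that of ALDOC is chr17:28577116-28577145 (minus strand, 240 bases before). HK2 and LDHA each had the motif at 2 places in 1 window. RefSeq starts can lie inside a gene as GENCODE 29 draws it: of the 250 bases, exons of any GENCODE transcript covered 0 in the HK2 window, 90 in that of BNIP3, 175 for LDHA, 128 for GAPDH and 250 for ALDOC. A stretch just after the start was found in GENCODE 29 transcripts of HK2, BNIP3, LDHA and ALDOC, but in no such transcript of GAPDH.

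Overlapping gene models limit some of these values. In GENCODE 29 on GRCh38, 22 of the 44 genes overlap an exon of another gene on the other strand and 9 on the same strand, and 18 have named pseudogenes, with 62 for GAPDH, 39 for BNIP3 and 13 for PGAM1. The library kit keeps the strand, but how strand and multiply mapping reads were counted is not given in the sources used here.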

How the data were processed

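RNA-seq values of 3 shControl and 3 shZDHHC20 libraries of PANC-1 cells were used as the authors deposited them, as 1 normalized signal for each gene in each library. The file is named FPKM, but all values of all 6 libraries were whole multiples of the library's smallest value above 0 within 0.001, so they were treated as counts divided by 1 factor per library, and no count test was run. The design had been written for FPKM. Aligner, counting tool and annotation are not given in the sources used here, and the submitters' processing notes name hg19. That the smallest value is 1 read is not given by these sources. Depth is therefore taken as known only between libraries, and no counting intervals are given.

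The 44 genes, the companion lists and the tests were chosen with earlier results of these data known. All 44 genes were named, and from each companion list at most the 4 called genes with the smallest adjusted p, besides genes stated as chosen later. Results for some single genes are left out here. Identifiers were matched to names by the reference table (27175 of 27394) and GENCODE 29. Genes with a mean of at least 1 were tested as log2(value + 0.1) in limma 3.58.1 (R 4.3.3; lmFit, and eBayes with a trend), two-sided, with Benjamini-Hochberg adjustment over 22189 genes and a threshold of 0.05. Fold changes are on this scale, and for genes with values near 0 they depend on the pseudocount (for SLC2A10, -0.86 with 1 and -2.94 with 0.01). Summaries and plots used Python 3.11.15, pandas 2.3.3 and matplotlib 3.10.9, and the fit was tested on simulated data. Alternatives were other pseudocounts, filters and scalings, no trend, a block for the replicate number, and fits without 1 library at a time. Positions and promoter windows are of GRCh38, not of the submitters' build, and were not used for the values.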

Additional observations from a re-analysis of the deposited data

How the results depend on the processing

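Of the 22 genes called lower, all 22 kept a negative log2 fold change in each of the 14 alternatives, 4 were called in all 14, and 13 in every alternative but the one without the mean-variance trend. Without the trend, 351 genes were called in place of 2541, 4 of the 44 genes and 1 companion gene were lower, and 1 companion gene was higher, in place of 22, 17 and 7. Leaving out each library in turn gave 1233 to 4454 genes called, 13 to 27 of the 44 genes lower and 0 to 1 higher, and 9 to 18 companion genes lower and 4 to 11 higher. Quantile normalization left 16 of the 22 called (lost were SLC2A12, GAPDH, PKM, SLC16A3, PDK1 and TKT).

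With the replicate number as a block, 18 of the 22 stayed called (lost were GAPDH, PKM, PDK1 and TKT), 4 companion genes were higher, and 1942 genes were called in all. Deviations of same-numbered libraries correlated at -0.056 to -0.021 over 3 pairs, so the numbers do not pair the libraries.

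The sign of the log2 fold change turned, with no call on either side, for ENO1 under quantile normalization (0.038). Leaving out each library in turn also turned it for PFKL (-0.071 to 0.033, above 0 without shZDHHC20 replicate 3), ALDOA (-0.37 to 0.74, below 0 without shZDHHC20 replicate 2), PDHB (-0.036 to 0.042, below 0 without replicate 3 of either group) and RPE (-0.022 to 0.017, below 0 without replicate 1 of either group). The cause was not tested. Differences of genes at few reads, such as SLC2A10 and CA9, are limited by depth.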
